A study of Mus musculus with 50 samples.

Results

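Transcripts of 9 orphan G-protein coupled receptors (*Gpr3*, *Gpr6*, *Gpr12*, *Gpr26*, *Gpr52*, *Gpr83*, *Gpr101*, *Gpr139* and *Gpr149*) were followed in medium spiny neurons (MSNs) of the mouse nucleus accumbens (NAc). The receptors were chosen by gene symbol, with earlier results of these data known, and all 9 are among the 24552 genes of both deposited count tables. RiboTag (RT) mice on a C57BL/6 background carried an HA-tagged ribosomal protein that Cre recombinase switches on, together with a D1-Cre or a D2-Cre transgene, so that immunoprecipitation (IP) with an HA antibody recovered ribosome-bound RNA from cells expressing the D1 or the D2 dopamine receptor. These mice were 8 to 12 weeks old and were either housed without defeat (Con) or exposed to chronic social defeat stress by an aggressor for up to 10 days and then sorted by social interaction into resilient (Res) and susceptible (Sus) animals. Each library came from 2 pooled mice. There were 13 D1 IPs (4 Con, 4 Res and 5 Sus), 15 D2 IPs (5 in each group) and 18 inputs, that is, RNA of the whole homogenate (3 for each line and group). A second table held 4 D1 IPs of undefeated male mice labelled RT; Sirt1-floxed; D1-Cre, whose age the labels do not give, set against the same 4 D1 Con libraries.

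An orphan receptor is a G-protein coupled receptor without an agreed natural ligand. Several of those studied here signal without any added ligand: *Gpr3*, *Gpr6* and *Gpr12* form a close subfamily whose members couple to Gs and raise cyclic AMP on their own, and *Gpr52*, *Gpr26* and *Gpr101* have also been linked to Gs. *Gpr139* is linked to Gq and responds to aromatic amino acids, and *Gpr83* is a proposed receptor for a peptide cut from proSAAS. In the striatum, D1-MSNs form the direct pathway and carry a dopamine receptor that raises cyclic AMP, whereas D2-MSNs form the indirect pathway and carry one that lowers it.

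The receptor genes lie on 8 chromosomes of the GRCm38 (mm10) assembly, and each is annotated as protein-coding by RefSeq. The Gs subfamily is spread over chr4:133209340-133212536 (*Gpr3*), chr10:41069977-41072290 (*Gpr6*) and chr5:146582150-146586465 (*Gpr12*), all on the minus strand. *Gpr26* lies at chr7:131966162-131985633 on the plus strand, *Gpr52* at chr1:160574717-160579704 within the span of *Rabgap1l*, and *Gpr101* at chrX:57496668-57503757 on the minus strand. *Gpr139* lies at chr7:119140747-119184538 on the minus strand, *Gpr83* at chr9:14859880-14870789 on the plus strand, and *Gpr149* at chr3:62529430-62605440 on the minus strand. *Gpr3* overlaps exons of *Cd164l2* on the opposite strand, and a non-coding gene overlaps *Gpr149*. The libraries were made with a stranded kit, but whether counting used strand is not given in the sources used here, so reads of overlapping genes may be mixed.

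Because the Gs-linked receptors feed the cyclic AMP pathway, the promoters of the members were searched for the cyclic AMP response element, TGACGTCA, and its shorter core, TGACG, on both strands. RefSeq promoters (GRCm38.p6; 250 bases before to 50 after the start) were given for 5 members. The 100 bases from -120 to -21 relative to the start are shown for the 4 members with a match there, in the direction of the gene and with the matched bases in capitals. This window was picked after the positions of the matches were seen.

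Gpr6, chr10:41072311-41072410, minus strand: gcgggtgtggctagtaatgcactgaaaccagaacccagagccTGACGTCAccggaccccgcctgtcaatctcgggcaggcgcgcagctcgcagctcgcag
Gpr3, chr4:133212557-133212656, minus strand: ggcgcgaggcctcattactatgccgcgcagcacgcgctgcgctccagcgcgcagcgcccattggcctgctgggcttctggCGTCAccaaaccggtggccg
Gpr83, chr9:14860090-14860189, plus strand: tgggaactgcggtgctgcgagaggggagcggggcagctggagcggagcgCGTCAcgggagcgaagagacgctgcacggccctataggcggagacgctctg
Gpr101, chrX:57503778-57503877, minus strand: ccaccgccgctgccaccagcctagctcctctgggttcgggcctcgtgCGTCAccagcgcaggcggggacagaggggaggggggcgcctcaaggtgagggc

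*Gpr6* alone among these held the full element, which consists of overlapping cores that begin at -78 and -75. In *Gpr3*, *Gpr83* and *Gpr101* the core begins at -40, -71 and -73. Neither of the 2 promoters of *Gpr12* had a match in this window. The same window held a core in 9.50% and the full element in 0.971% of 32851 promoters. Because the window was placed on the members' own matches, these shares cannot show whether the members hold more of them. Over the full 300 bases searched, 20.8% of promoters held a core and 1.79% the full element. The core contains a C followed by G (CpG). The 4 promoters with a match held 13 to 38 CpG, beside a median of 7 over all promoters. The matches describe letters in these windows, and binding was not measured. Promoters of *Gpr26*, *Gpr52*, *Gpr139* and *Gpr149* were not analysed here.

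The IPs held 21591075 to 31009626 counts on genes, the inputs 18384265 to 28179940, and the libraries labelled Sirt1-KO 22174187 to 31785984. The labelled cell types were checked against their markers. In Con, all 4 D1-MSN markers (*Pdyn*, *Drd1*, *Tac1* and *Chrm4*) were higher in D1 IPs and all 3 D2-MSN markers (*Drd2*, *Adora2a* and *Penk*) were higher in D2 IPs, at a fold over 1.5 and an adjusted p under 0.05. Markers of the other subtype were read in both IPs. The summed D2-MSN markers were at 2018 to 3404 normalized counts per 1e+06 counts (CPM) in D1 IPs and 5543 to 7831 in D2 IPs, and the summed D1-MSN markers at 1101 to 1553 CPM in D1 IPs and 396 to 638 in D2 IPs. The IPs also differed in other cells: the summed level of 5 cholinergic interneuron markers was 7.73 to 30.6 CPM in D1 IPs and 62.7 to 135 in D2 IPs, and that of 5 cortical excitatory neuron markers was 391 to 1381 CPM in D1 IPs and 26.1 to 301 in D2 IPs. None of these markers was at 0 in every library, and their part in the differences below was not tested. In such bulk libraries, fewer cells of a type and less RNA per cell cannot be told apart.

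The members covered a wide range of levels. Levels were set per kilobase of exon annotated by GENCODE, so that genes could be compared roughly. The gene models used for counting are not given in the sources used here, and another exon length would shift a gene's place. For *Gpr26*, GENCODE gave 11571 exon bases and an end at 131994405, past the RefSeq end of 131985633. *Gpr83* led the D1 IPs at 42.0 ± 4.72 CPM per kb (SD, n = 13), followed by *Gpr6* at 27.4 ± 4.16. The highest *Gpr6* library reached into the range of *Gpr83*. *Gpr12* (16.6 ± 1.00) and *Gpr101* (15.6 ± 2.60) came next, and their ranges over libraries overlapped. *Gpr149* stood at 6.67 ± 0.833, *Gpr26* at 3.27 ± 0.554, *Gpr3* at 1.48 ± 0.376 and *Gpr139* at 0.129 ± 0.0538 CPM per kb, and the ranges of these 4 did not overlap. The order changed in D2 IPs, where *Gpr6* led at 75.4 ± 8.27 CPM per kb (SD, n = 15) ahead of *Gpr83* at 44.7 ± 3.83, with no overlap.

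*Gpr12* followed at 15.7 ± 1.19 CPM per kb in D2 IPs. *Gpr149* (9.90 ± 0.770) and *Gpr101* (8.54 ± 2.47) overlapped each other, as did *Gpr26* (2.21 ± 0.460) and *Gpr3* (1.25 ± 0.325), and *Gpr139* was lowest at 0.0391 ± 0.0249. In inputs of both lines the order of the means was that of the D1 IPs, with *Gpr83* highest and *Gpr139* lowest. In both lines of input, each gene from *Gpr83* down to *Gpr26* overlapped its neighbour, and *Gpr3* and *Gpr139* stood apart. *Gpr52* had no exon length in the annotation used and was not placed in this order.

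**Figure D1:**
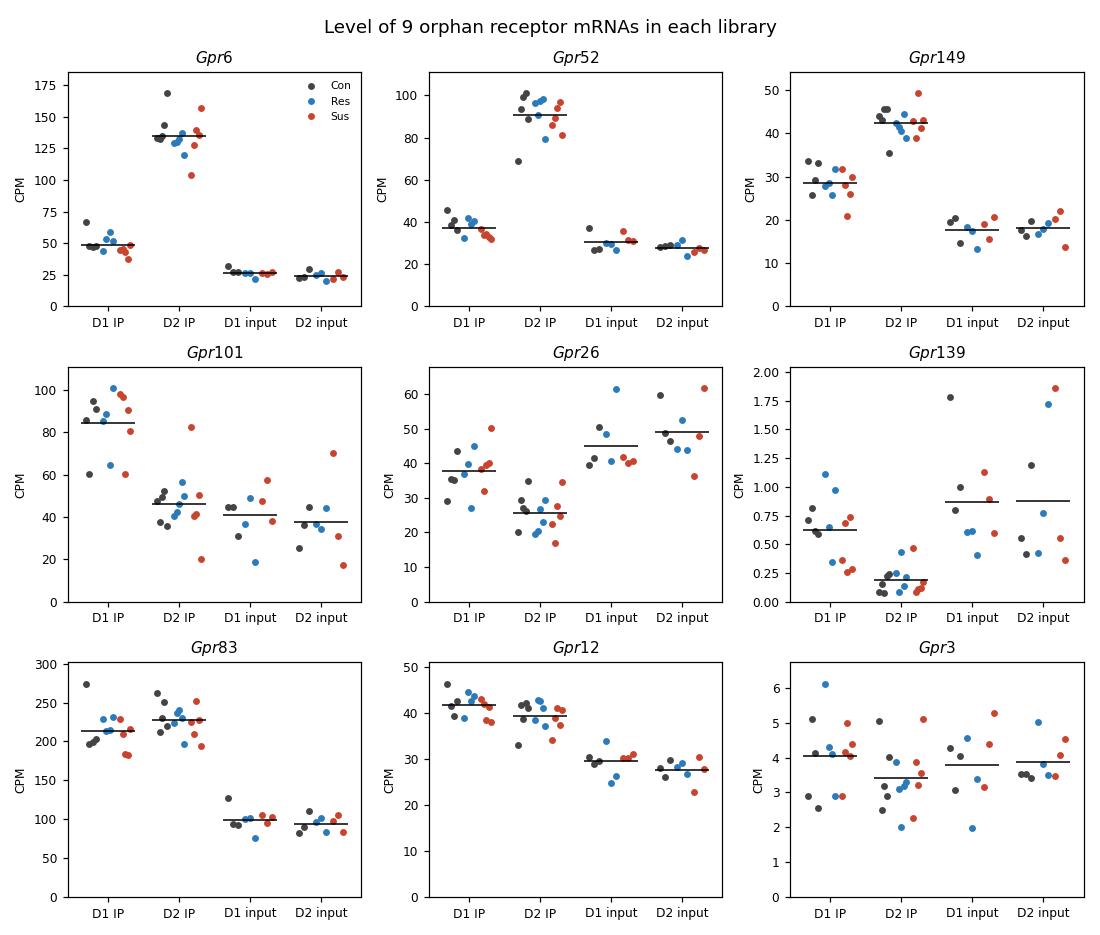
Level of each receptor (CPM, y axis) in every D1 IP, D2 IP and input library; points are libraries coloured by Con, Res and Sus, and the horizontal line is the mean over all libraries of that kind. *Gpr6* and *Gpr52* stand highest in D2 IPs, *Gpr101* in D1 IPs, and *Gpr139* stays near or below 1 CPM in most libraries.

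The first comparison asked which receptors differ between D1- and D2-MSNs. *Gpr6* and *Gpr52* were higher in D2 IPs in each of the 3 stress groups, and *Gpr101* was higher in D1 IPs in each. In Con, 4 of the 9 members passed the thresholds (fold over 1.5 and adjusted p under 0.05, edgeR quasi-likelihood test), against a background of 4.98% of 14224 genes; 2 were higher in D1 IPs (background 3.42%) and 2 in D2 IPs (background 1.56%). In Res, 5 members passed (5.52% of genes), 3 higher in D1 IPs (3.72%) and 2 in D2 IPs (1.8%). In Sus, 5 passed (5.55% of genes), 2 higher in D1 IPs (3.94%) and 3 in D2 IPs (1.61%). The members were chosen with earlier results of these data known, and the paper lists *Gpr6* among its D2-MSN markers. These shares are therefore a description and cannot test whether the members differ more often than other genes. The median difference of the members was 0.05, 0.06 and 0.06 on the log2 scale in Con, Res and Sus, beside -0.01, -0.01 and -0.02 for all genes.

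*Gpr6*, the member of the Gs subfamily known for its expression in neurons of the indirect pathway, was at 66.7, 47.7, 46.7 and 48.0 CPM in the D1 Con libraries and at 133, 132, 134, 143 and 168 CPM in the D2 Con libraries. Every D2 library was above every D1 library. The difference of D1 from D2 was -1.46 ± 0.11 (log2 fold change ± SE, adjusted p = 8.99e-11), a 2.74-fold lower level in D1 IPs. In Res, D1 IPs were at 44.1, 53.1, 58.8 and 51.4 CPM and D2 IPs at 129, 130, 132, 137 and 119 CPM, with a difference of -1.33 ± 0.11. In Sus, D1 IPs were at 44.3, 45.5, 42.9, 37.7 and 48.4 CPM and D2 IPs at 104, 127, 139, 135 and 157 CPM, with a difference of -1.61 ± 0.10. The groups did not overlap in either.

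The other members of the subfamily gave no call. *Gpr12*, another Gs-coupled member of the subfamily, was at 46.3, 41.4, 39.2 and 42.6 CPM in D1 Con and at 32.9, 41.6, 38.6, 42.0 and 41.0 CPM in D2 Con, and the groups overlapped. The difference was 0.10, with a 95% interval from -0.04 to 0.24 on the log2 scale. *Gpr3* was low, at 2.89, 5.10, 4.12 and 2.56 CPM in D1 Con and 5.05, 2.49, 3.18, 2.89 and 4.01 CPM in D2 Con, again with overlap. Its difference was 0.05 in Con, with an interval from -0.46 to 0.55, and 0.48 in Res, with an interval from -0.02 to 0.98.

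*Gpr52*, a Gs-coupled receptor with high activity in the absence of ligand, was at 45.8, 38.7, 40.7 and 36.1 CPM in D1 Con and at 69.0, 93.4, 99.2, 101 and 89.0 CPM in D2 Con. The groups were separate, although D2 Con replicate 1 sat well below the other D2 libraries. D1 IPs were lower by 2.26-fold in Con (adjusted p = 3.03e-10), 2.42-fold in Res and 2.67-fold in Sus. Over the 28 IPs, log2 levels of *Gpr52* and *Gpr6* had a Pearson's r of 0.973, a description in which the split between D1 and D2 libraries weighs heavily.

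*Gpr101*, an X-linked receptor tied to Gs and to growth hormone excess in humans, had the opposite pattern. It was at 86.0, 60.3, 94.9 and 90.9 CPM in D1 Con and at 47.4, 37.9, 49.4, 52.2 and 35.9 CPM in D2 Con, without overlap. D1 IPs were higher by 0.88 ± 0.22 on the log2 scale in Con (adjusted p = 0.00766), 0.84 ± 0.22 in Res (adjusted p = 0.00924) and 0.84 ± 0.21 in Sus (adjusted p = 0.00584). In Sus the groups overlapped because D2 Sus replicate 1 stood at 82.7 CPM, where the other D2 Sus libraries were at 40.3, 41.2, 50.5 and 20.0. With only the D1 and D2 Sus libraries in the model, the adjusted p of *Gpr101* was 0.0515.

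That D2 Sus pool was unusual in a further respect. Its cortical marker sum, 26.1 CPM, was the lowest of the 28 IPs, and its input had the lowest cortical sum of the 18 inputs, 102 CPM, together with the highest *Gpr101* level among inputs, 70.3 CPM. The inputs with the lowest *Gpr101* levels, D2 Sus replicate 3 (17.5 CPM) and D1 Res replicate 3 (18.6 CPM), had cortical sums of 1009 and 1105 CPM, the highest among inputs. Cholinergic markers moved in the other direction: they summed to 135 CPM in this IP and 129 CPM in its input, the highest of IPs and of inputs, and to 46.5 and 43.1 CPM in D2 Sus input replicate 3 and D1 Res input replicate 3, the lowest among inputs. D2 Sus replicate 5, the IP with the lowest *Gpr101* level (20.0 CPM), had the lowest cholinergic sum (62.7 CPM) and the highest cortical sum (301 CPM) of the D2 IPs. Between the lines these relations were not seen. D1 IPs had mostly higher *Gpr101* (60.3 to 101 CPM, against 20.0 to 82.7 in D2 IPs). Their cholinergic sums were lower (7.73 to 30.6 CPM, against 62.7 to 135), and their cortical sums higher (391 to 1381 CPM, against 26.1 to 301). The part of these marker levels in the *Gpr101* values was not tested.

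*Gpr26*, a constitutively active receptor linked to Gs, was at 29.0, 35.5, 35.1 and 43.6 CPM in D1 Con and 20.0, 29.4, 27.0, 26.2 and 34.9 CPM in D2 Con. The groups overlapped, and the difference of 0.37 ± 0.17 did not pass (adjusted p = 0.163). In Res, D1 IPs were at 36.8, 39.9, 27.1 and 45.0 CPM and D2 IPs at 19.5, 20.3, 26.8, 23.1 and 29.5 CPM, which overlapped in 1 D1 library, and the difference of 0.63 ± 0.17 passed (adjusted p = 0.0112). In Sus the difference was 0.65 ± 0.16 (adjusted p = 0.00562). The fold sat at 1.55 and 1.57, close to the threshold of 1.5, and it dropped below in Res without D1 replicate 4, D2 replicate 1 or D2 replicate 2, and in Sus without D1 replicate 5 or D2 replicate 2.

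*Gpr139*, the Gq-linked member, was near the limit of detection. The D1 Con libraries held 20, 21, 18 and 15 counts and the D2 Con libraries 2, 3, 2, 6 and 5, so that every D1 library was above every D2 library. The fitted difference was 2.10 ± 0.49 (adjusted p = 0.00371) in Con and 1.75 ± 0.46 (adjusted p = 0.00764) in Res. In Sus, the D1 IPs held 9, 18, 7, 19 and 6 counts and the D2 IPs 14, 2, 3, 3 and 4, and the difference of 1.20 ± 0.46 did not pass (adjusted p = 0.0732). Without D2 Sus replicate 1, the library with 14 counts, it was 1.88 and passed (adjusted p = 0.00784).

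*Gpr149*, a receptor without an established ligand or coupling, was lower in D1 IPs by a modest amount. It was at 33.6, 25.7, 29.3 and 33.1 CPM in D1 Con and 44.1, 43.1, 45.6, 45.7 and 35.5 CPM in D2 Con, with no overlap. The difference of -0.51 ± 0.10 had an adjusted p of 0.000575 but a fold of 1.42. In Res it was -0.56 ± 0.10 (1.47-fold), and in Sus, at -0.68 ± 0.09 (1.60-fold), it passed the fold threshold too.

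*Gpr83*, the proposed proSAAS peptide receptor and the member with the highest CPM in every group of libraries, showed no difference that passed. It was at 275, 197, 199 and 203 CPM in D1 Con and 262, 212, 230, 251 and 220 CPM in D2 Con, which overlapped. The 95% interval of its difference ran from -0.30 to 0.06 in Con, from -0.22 to 0.15 in Res and from -0.31 to 0.04 in Sus.

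**Figure D2:**
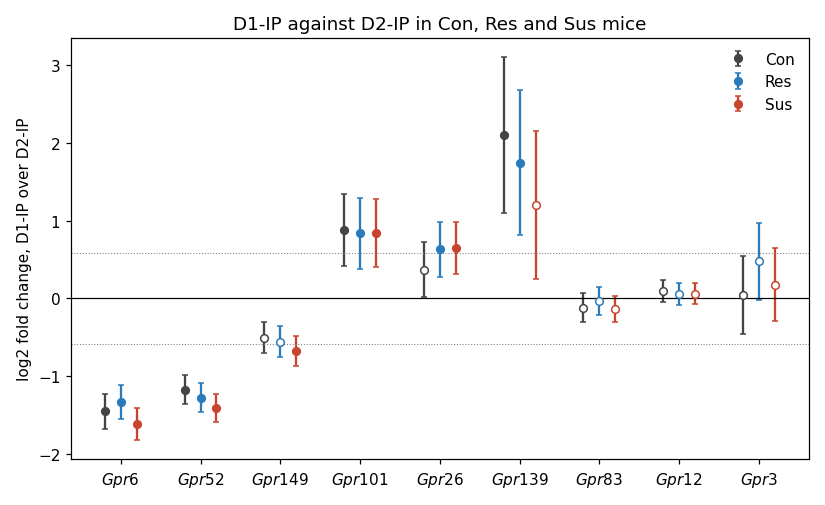
Difference of D1 from D2 IPs (log2 fold change, y axis) for each receptor (x axis) in Con, Res and Sus; bars are 95% intervals, open markers did not pass both thresholds and dotted lines mark a 1.5-fold difference. *Gpr6* and *Gpr52* lie below the lower line and *Gpr101* above the upper line in all 3 groups, while the points of *Gpr83*, *Gpr12* and *Gpr3* stay between the lines.

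The size of these differences was also compared between stress groups, with an interaction term of subtype and stress. None of the 9 members passed at an adjusted p under 0.05, nor did any of the 14224 genes (background 0%, edgeR quasi-likelihood test), and none of the members had an unadjusted p under 0.05. The lowest unadjusted p was 0.0602, for *Gpr6* in Sus against Res, where the D1 to D2 difference was larger by 0.28 on the log2 scale in Sus (95% interval of the change from -0.58 to 0.01). For *Gpr52* in Sus against Con the change was -0.24 (interval from -0.50 to 0.02).

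The next comparison set each IP against whole-tissue input, to see in which ribosome-bound fraction a receptor was enriched or depleted. In the D1 line, *Gpr83*, *Gpr101*, *Gpr6* and *Gpr149* were higher in the IP and none was lower, so that 4 of 9 passed against a background of 43.1% of 15404 genes (13.8% higher and 29.3% lower). In the D2 line, *Gpr6*, *Gpr52*, *Gpr83* and *Gpr149* were higher in the IP and *Gpr139* and *Gpr26* were lower, 6 of 9 against a background of 43.6% (12.8% higher and 30.8% lower). The share that passed in the D1 line was near the background, and those members were all higher in the IP. The median log2 difference of the members was 0.51 in both lines, beside -0.04 and -0.08 for all genes.

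*Gpr6* was at 22.0 to 31.9 CPM in D1 inputs (median 26.5), and at 37.7 to 66.7 CPM in D1 IPs (median 47.7). In the D2 line, inputs were at 19.8 to 29.5 CPM (median 23.4) and IPs at 104 to 168 CPM (median 133). IPs and inputs did not overlap in either line. The enrichment was 1.84-fold in D1 (adjusted p = 2.00e-14) and 5.53-fold in D2 (adjusted p = 8.36e-29). The D2-MSN markers were also higher in D1 IPs than in D1 inputs, 2 of 3 past both thresholds with a median of 0.91 on the log2 scale, close to the 0.88 of *Gpr6*, and their part in the *Gpr6* value was not tested. In the D2 line all 3 were higher, with a median of 2.54.

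*Gpr52* had inputs at 26.5 to 37.4 CPM in the D1 line and 24.0 to 31.5 CPM in the D2 line, while IPs were at 32.2 to 45.8 and 69.0 to 101 CPM. The D1 groups overlapped and the D2 groups did not. Its enrichment was 3.26-fold in D2 and 1.23-fold in D1, where the adjusted p of 5.06e-05 passed and the fold did not.

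*Gpr83* was enriched in both lines, with 75.3 to 127 CPM in D1 inputs, 182 to 275 in D1 IPs, 82.6 to 111 in D2 inputs and 194 to 262 in D2 IPs. The folds of 2.16 and 2.41 had no overlap between IPs and inputs. *Gpr149* was enriched by 1.63-fold in D1 and 2.34-fold in D2, and *Gpr12* by 1.42-fold in both lines, below the fold threshold, with adjusted p-values of 7.33e-12 and 3.70e-12. For *Gpr3* the 95% interval of the log2 difference ran from -0.21 to 0.41 in D1 and from -0.49 to 0.12 in D2.

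*Gpr101* was enriched 2.08-fold in D1 IPs (adjusted p = 1.78e-06), from 18.6 to 57.6 CPM in inputs and 60.3 to 101 CPM in IPs, without overlap. In D2 the inputs (17.5 to 70.3 CPM) and IPs (20.0 to 82.7 CPM) overlapped and the difference of 0.29 ± 0.18 did not pass (adjusted p = 0.124). *Gpr26* went the other way. It was at 36.2 to 61.6 CPM in D2 inputs and 16.8 to 34.9 CPM in D2 IPs, a 1.92-fold depletion with no overlap, while in D1 the fold was 1.19 (adjusted p = 0.0313). All 5 cortical markers were lower in D2 IPs than in D2 inputs (median -1.68), while in D1 1 was higher and 1 lower (median 0.74). *Gpr26* was highest in the inputs with the highest cortical sums, D2 Sus replicate 3 (61.6 CPM) and D1 Res replicate 3 (61.3 CPM). It was lowest in D2 Sus input replicate 1 (36.2 CPM), where that sum was lowest. In IPs the order was mixed. D1 Res replicate 3 had the highest cortical sum of its group (867 CPM) and the lowest *Gpr26* of the D1 IPs (27.1 CPM). D2 Sus replicate 5 had the highest of both in its group (301 and 34.6 CPM). The part of these markers in the *Gpr26* values was not tested.

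*Gpr139* was higher in whole tissue than in D2 IPs, by 4.50-fold (adjusted p = 5.74e-08), although the ranges overlapped. In D1 the difference was -0.40 ± 0.29 and did not pass (adjusted p = 0.208). Its inputs ran from 0.406 to 1.78 CPM in the D1 line and from 0.362 to 1.86 CPM in the D2 line.

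The lines were then compared in their ratio of IP to input, with an interaction term of line and IP. The term passed for 6 of 9 members at an adjusted p under 0.05, against a background of 25.5% of genes. The ratio of IP to input was higher in the D2 line for *Gpr6* (-1.59 ± 0.10, log2 of the D1 ratio over the D2 ratio), *Gpr52* (-1.41 ± 0.09) and *Gpr149* (-0.52 ± 0.11). It was higher in the D1 line for *Gpr101* (0.76 ± 0.25, adjusted p = 0.0207), and for *Gpr139* (1.77 ± 0.43) and *Gpr26* (0.69 ± 0.15), whose estimates against input were below 0 in both lines and lower in D2. Without D2 Sus input replicate 1, the library with the highest *Gpr101* level of the inputs, the term for *Gpr101* was 0.50 and did not pass (adjusted p = 0.111). With control libraries only, *Gpr6* and *Gpr52* passed and the other 4 did not.

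By the labels' protocol an IP and an input of one number share a homogenate, so a ratio was also taken within these pools, 9 per line. The levels themselves did not show this pairing. Deviations from group means correlated at a median r of 0.03 for same numbers and -0.02 for different numbers. *Gpr6* had a ratio from 1.56 to 2.67 in D1 pools (median 1.75) and from 4.56 to 6.67 in D2 pools (median 5.25). The *Gpr52* ratio ran from 1.03 to 1.49 in D1 (median 1.23) and from 2.47 to 4.06 in D2 (median 3.31). For both genes the lines were fully apart.

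The *Gpr101* ratio was above 1 in all 18 pools, from 1.34 to 3.47 in D1 (median 1.92) and from 1.03 to 2.35 in D2 (median 1.18), with overlap. In the D2 Sus pool with the high IP level (82.7 CPM), the ratio was 1.18, the median of its line, because the input was high too. The *Gpr26* ratio was below 1 in all 18 pools, from 0.442 to 0.981 in D1 and from 0.335 to 0.618 in D2.

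**Figure D3:**
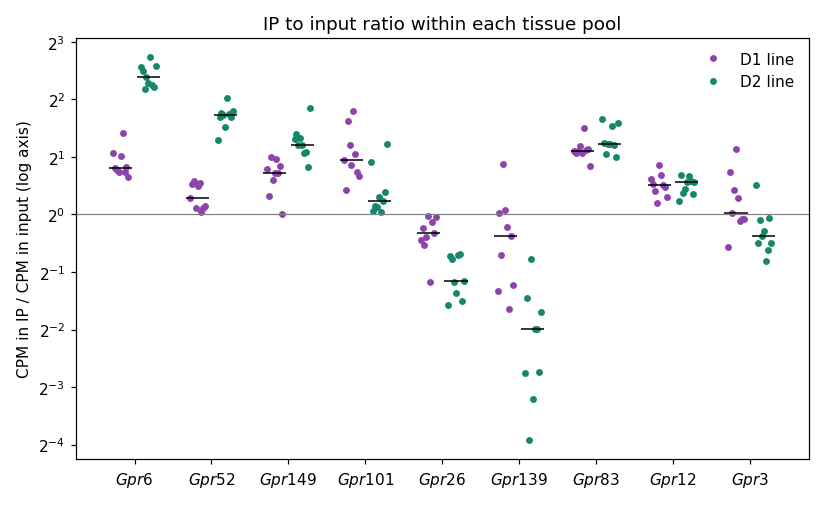
Ratio of IP to input of the same number (y axis, log scale) for each receptor, in 9 D1 and 9 D2 pools. Points are pools and black lines are medians. The D2 pools of *Gpr6* and *Gpr52* lie wholly above the D1 pools, and the *Gpr26* ratio is under 1 in every pool.

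The stress comparisons asked whether defeat, or its behavioural outcome, changed a receptor within one subtype. Calls were made at an unadjusted p under 0.05, as the study did, with the adjusted p beside it. In D1 IPs of Sus against Con, 2 of 9 members passed, *Gpr52* and *Gpr6*, both lower in Sus, where 5.34% of 14224 genes passed (2.84% lower in Sus) and 0% did at an adjusted p under 0.05. In D1 Sus against D1 Res, which shares the Sus libraries, 1 member passed, *Gpr6*, where 4.23% of genes passed (2.3% lower in Sus) and again 0% after adjustment. In D1 Res against D1 Con no member passed (2.11% of genes, and 0.00703% after adjustment).

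For *Gpr52*, the Sus libraries were at 36.6, 33.9, 34.2, 32.7 and 32.2 CPM, beside 45.8, 38.7, 40.7 and 36.1 CPM in Con. The lowest Con library was below the highest Sus library. The difference was -0.25 ± 0.09 on the log2 scale (unadjusted p = 0.0103, adjusted p = 0.846). Against Res (32.2, 42.0, 38.9 and 40.6 CPM), it was -0.18 ± 0.09 (unadjusted p = 0.0571).

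For *Gpr6*, the Sus libraries were at 37.7 to 48.4 CPM, while 3 Con libraries were at 46.7 to 48.0 CPM and D1 Con replicate 1 stood apart at 66.7 CPM. The difference of -0.26 ± 0.11 had an unadjusted p of 0.0213 (adjusted p = 0.846), and that against Res was -0.25 ± 0.11 (unadjusted p = 0.0273, adjusted p = 0.999). Without D1 Con replicate 1, neither gene passed against Con (*Gpr6* -0.12, unadjusted p = 0.256, and *Gpr52* -0.18, unadjusted p = 0.0722), and without D1 Sus replicate 4 *Gpr6* did not pass (unadjusted p = 0.0685). Against Res, *Gpr6* did not pass without D1 Res replicate 2 or 3 or D1 Sus replicate 4 (unadjusted p = 0.0533, 0.123 and 0.0839). The library that stood apart, D1 Con replicate 1, also had the highest summed D1-MSN markers of the D1 IPs, 1553 CPM, and the lowest cortical marker sum, 391 CPM. Its D2-MSN marker sum, 3404 CPM, was also the highest of the D1 IPs, with the next at 2735. The D2-MSN markers summed to 2322 to 3404 CPM in D1 Con, 2303 to 2735 in D1 Res and 2018 to 2559 in D1 Sus, and their part in the *Gpr6* and *Gpr52* values was not tested.

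Of the other 7 members, *Gpr139* had the largest estimate between D1 Sus and D1 Con, at -0.54 ± 0.42. *Gpr101*, at 98.3, 96.5, 60.5, 90.5 and 80.7 CPM in D1 Sus, overlapped Con fully, with a difference of 0.03 and a 95% interval from -0.42 to 0.49. *Gpr83* differed by -0.10 (interval from -0.28 to 0.08) and *Gpr12* by -0.07 (interval from -0.21 to 0.08).

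In D2 IPs no member passed in Sus against Con (3.68% of genes), Res against Con (3.02%) or Sus against Res (1.66%), and 0% of genes passed after adjustment in each. Apart from *Gpr139*, the differences of the members in these 3 comparisons were within 0.21 on the log2 scale. For *Gpr6* the interval of Sus against Con was -0.30 to 0.10, and for *Gpr52* it was -0.19 to 0.16. The change in D1 was not shown to differ from that in D2, as the interaction above did not pass.

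In inputs, which sample all cells of the tissue, no member differed between the D1 and D2 lines (0 of 9, background 0.0199% of 15063 genes). None passed in Sus against Con (4.51%), Res against Con (3.25%) or Sus against Res (5.47%) at an unadjusted p under 0.05, with 0% of genes after adjustment. *Gpr6* came nearest, at -0.15 ± 0.08 in Res against Con (unadjusted p = 0.0805). *Gpr101* had the widest interval of the better-expressed members, from -0.33 to 0.76 in Sus against Con.

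**Figure D4:**
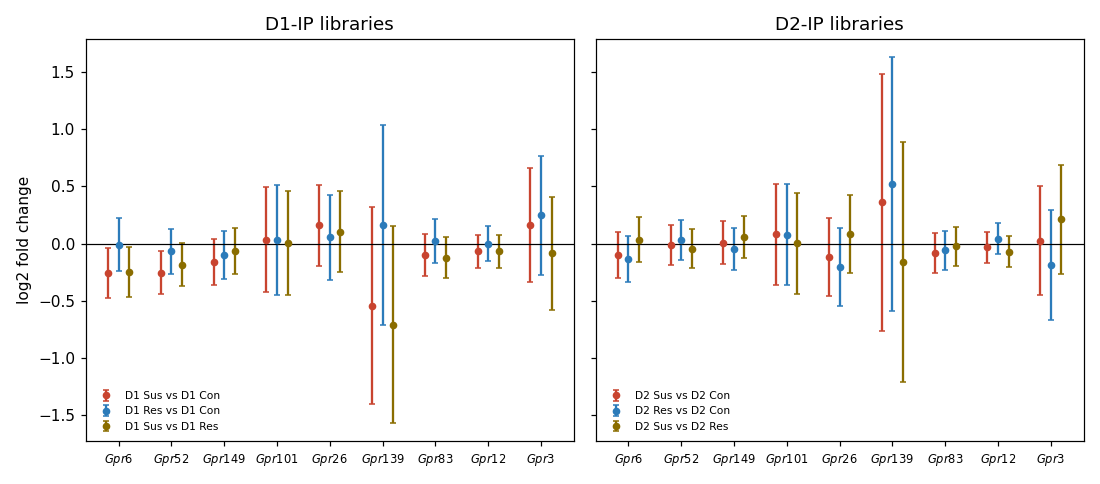
Difference between stress groups (log2 fold change, y axis) for each receptor (x axis) in D1 and D2 IPs, with 95% intervals as bars. Intervals that exclude 0 are those of *Gpr52* and *Gpr6* in D1 Sus against D1 Con and of *Gpr6* in D1 Sus against D1 Res.

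The last comparison was between D1 IPs labelled Sirt1-KO and D1 Con. *Sirt1*, which encodes a NAD-dependent deacetylase, was at 15.2, 16.2, 13.2 and 10.2 CPM in the libraries labelled Sirt1-KO and at 13.1, 16.6, 14.8 and 14.4 CPM in D1 Con, with overlap and a difference of -0.10 ± 0.13 (adjusted p = 0.768). Counts over the whole gene do not show whether the floxed exons were lost. The labels give no age for these mice and do not say whether both groups were prepared together, so genotype and preparation cannot be told apart.

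At a fold over 1.5 and an adjusted p under 0.05, 0 of 9 members passed (edgeR quasi-likelihood test, background 0.749% of 13626 genes). At an adjusted p under 0.05 with no limit on the fold, 2 passed (1.66% of genes), *Gpr12* and *Gpr83*, both lower. At an unadjusted p under 0.05, 6 passed (17.3% of genes), all lower in the libraries labelled Sirt1-KO (8.11% of genes were lower). The median difference of the members was -0.33, beside 9.16e-05 for all genes.

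*Gpr83* was at 148, 131, 121 and 166 CPM in the libraries labelled Sirt1-KO and at 260, 187, 188 and 193 CPM in D1 Con, normalized within the second table. The groups did not overlap. The difference was -0.55 ± 0.12 (1.46-fold, adjusted p = 0.0445). *Gpr12* was at 32.9, 31.6, 30.6 and 32.7 CPM against 43.8, 39.3, 37.1 and 40.5 CPM, also without overlap, and the difference was -0.33 ± 0.07 (adjusted p = 0.0360).

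*Gpr52* was at 32.7, 29.9, 30.6 and 33.1 CPM against 43.3, 36.7, 38.6 and 34.3 CPM in D1 Con, again without overlap, with a difference of -0.28 ± 0.08 (adjusted p = 0.0943). *Gpr139* held 1, 10, 1 and 8 counts in the libraries labelled Sirt1-KO and 20, 21, 18 and 15 in D1 Con, with a difference of -1.81 ± 0.56 (adjusted p = 0.126). *Gpr101* (-0.46 ± 0.16, adjusted p = 0.168) and *Gpr149* (-0.41 ± 0.14, adjusted p = 0.154) overlapped. *Gpr26* and *Gpr3* differed by 0.16 each, with intervals from -0.21 to 0.52 and from -0.44 to 0.76.

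*Gpr6* was at 34.2, 33.0, 32.8 and 58.0 CPM against 63.1, 45.2, 44.2 and 45.7 CPM in D1 Con, with a difference of -0.33 ± 0.18 (adjusted p = 0.379). Replicate 5 of the libraries labelled Sirt1-KO was the high one, while the other 3 were below every Con library. Replicate 5 also had the highest D2-MSN marker sum of these libraries, 2519 CPM against 1596 to 1903 CPM, and the lowest cortical sum, 836 CPM. Without replicate 5, *Gpr83* (-0.64, adjusted p = 0.00932) and *Gpr139* (-2.26, adjusted p = 0.0438) passed both thresholds.

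Markers of the MSNs themselves moved with these libraries. The summed level of the 4 D1-MSN markers was 896 to 1122 CPM in the libraries labelled Sirt1-KO and 1192 to 1469 CPM in D1 Con, without overlap, and *Pdyn* differed by -0.37 ± 0.08 (adjusted p = 0.0448). The 3 D2-MSN markers summed to 1596 to 2519 CPM against 2209 to 3220 CPM, and the 5 cortical markers to 836 to 1538 CPM against 370 to 1019 CPM. The 5 cholinergic markers summed to 4.13 to 8.51 CPM against 10.1 to 11.5 CPM, without overlap, and *Slc5a7*, a choline transporter, was lower at both thresholds (-1.11 ± 0.22, adjusted p = 0.0356). None of these genes was at 0 in every library. The part of these shifts in the lower receptor levels was not tested.

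**Figure D5:**
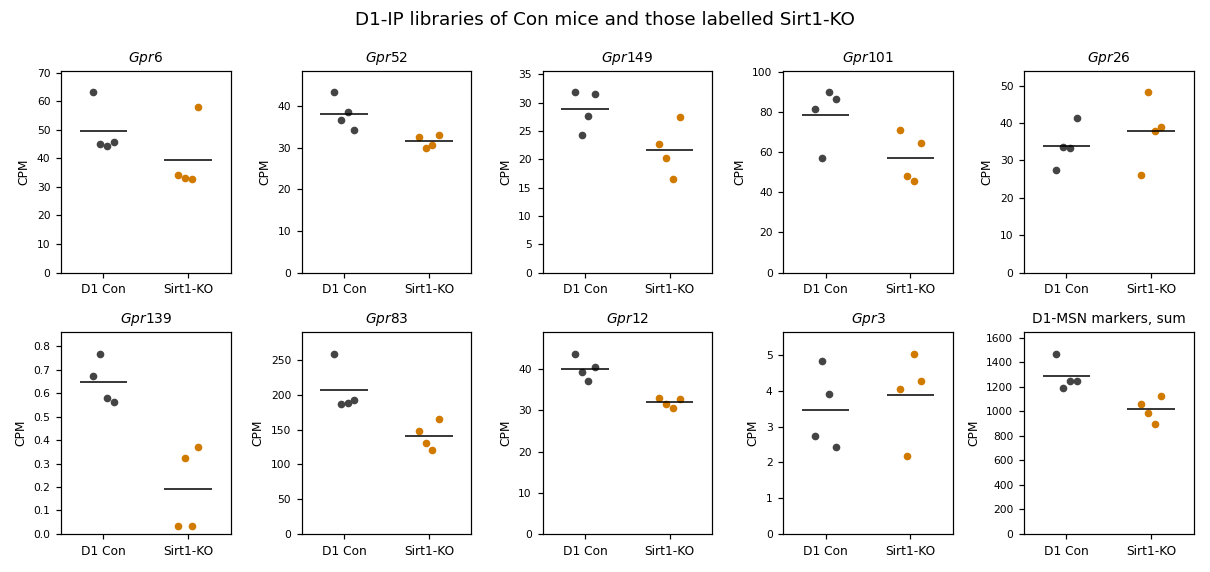
Level of each receptor (CPM, y axis) in D1 Con and in the D1 IPs labelled Sirt1-KO; points are libraries, lines are means, and the last panel is the summed level of 4 D1-MSN markers. *Gpr83*, *Gpr12*, *Gpr52* and *Gpr139* do not overlap between the groups, and neither does the marker sum. Overlap was not looked at over all genes, so its share there is not known.

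Signalling genes of the receptors' pathways were taken from lists chosen by pathway. Of 36 genes of G protein and cyclic AMP signalling, 1 was higher in D1 Con than in D2 Con at both thresholds (3.42% of all genes). It was *Adcy2*, an adenylyl cyclase (0.69 ± 0.09). None was lower (1.56% of all genes), and the median was 0.00, beside -0.01 for all genes. *Gnai1* (0.56 ± 0.14) and *Adcy8* (0.48 ± 0.17, adjusted p = 0.0611), and the phosphodiesterases *Pde4b* (-0.52 ± 0.06) and *Pde10a* (-0.43 ± 0.10), did not reach both thresholds. Of 12 genes of Gq signalling, 3 were higher in D1 Con (3.42% of all genes) and none was lower, with a median of 0.02. Among the 3 were *Gna14*, a G protein subunit (3.21 ± 0.56), and *Prkca*, a protein kinase C (0.67 ± 0.10). *Gna14* was near the limit of detection, at a mean of 1.07 CPM in D1 Con and 0.108 CPM in D2 Con. Of 7 receptor kinases and arrestins, none passed, and *Grk3* was at 0.31 ± 0.13.

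Precursors of proposed ligands did not pass either. *Pcsk1n*, which encodes proSAAS, was at 0.07 ± 0.06, and *Pomc*, whose melanocortin peptides have been proposed for *Gpr139*, at -0.02 ± 0.34. Among 31 tested orphan receptors outside the 9 members, 4 were higher in D1 Con (3.42% of all genes) and 1 was lower (1.56%), with a median of 0.07. Those higher included *Gpr37* (0.83 ± 0.24), *Gpr21* (0.82 ± 0.22) and *Gpr22* (0.62 ± 0.14), of which *Gpr21* and *Gpr22* were named after their values were seen. *Gpr50* (1.88 ± 0.81, adjusted p = 0.125) did not pass.

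Genes whose pattern over the 28 IPs was most like that of a member were named by Pearson's r of log2 CPM, as a description in which the D1 and D2 split and the shared library preparation enter. For *Gpr6* they were *Penk*, *Drd2* and *Adora2a* (r of 0.991, 0.990 and 0.988), all D2-MSN markers, and for *Gpr52* they were *Drd2*, *P2ry1* and *Pde4b* (0.979, 0.976 and 0.976). *Gpr149* was most like *Gucy1a3*, *P2ry1* and *Rcn1* (0.948, 0.940 and 0.935). *Gpr101* was most like *Rasgrf2*, *Arhgap36* and *Crh* (0.944, 0.938 and 0.937), and *Gpr26* like *Ppm1l*, *Mgat5* and *Ptprj* (0.912, 0.891 and 0.850).

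The members with low counts or without a subtype difference had lower values. *Gpr139* was most like *Avp*, *Sox6* and *Sec14l3* (0.841, 0.818 and 0.817), *Gpr83* like *Rem2*, *Ccar2* and *Kdm4b* (0.810, 0.808 and 0.808), *Gpr3* like *Trib1*, *Cnksr3* and *Ubl7* (0.762, 0.717 and 0.706), and *Gpr12* like *Car12* and *Chst15* (0.716 and 0.690).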

How the data were processed

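Deposited values were read counts per gene symbol, which the authors made by trimming with cutadapt, aligning to mm10 with STAR and counting with HTSeq; for the Sirt1-KO table the labels name no counter. Versions are not given in the sources used here. The counts were not normalized. Groups were taken from the deposited labels, and 2 columns (D1 Con 5 and D1 Res 5) matched no sample label and were left out. The 5 entries naming no gene (18.0% to 28.3% of reads in IPs, 35.9% to 40.0% in inputs and 19.2% to 23.8% in the libraries labelled Sirt1-KO) stayed out of all totals.

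TMM-normalized CPM and quasi-likelihood tests came from edgeR 4.0.16 in R 4.3.3 on genes kept by filterByExpr (minimum count 10, total 15): 14224 in the model of 28 IPs, 15404 with inputs added (46 libraries), 15063 in the 18 inputs (line as covariate for stress) and 13626 for Sirt1-KO. All 9 members passed each filter. P-values were adjusted over all genes by the Benjamini-Hochberg method. Alternatives were DESeq2 1.42.0, RLE factors, other filters, a replicate block, only the libraries compared, and each library left out. IP and input of one number share a homogenate per the labels' protocol. Their deviations from group means correlated at a median r of 0.03 (3 of 18 pairs over 0.1). For different numbers it was -0.02 (15 of 66 pairs over 0.1), so the levels did not show the pairing. Scripts were tested on simulated data. Figures used matplotlib 3.10.9.

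The members and gene lists were chosen with earlier results of these data known. Nothing in the labels says which pools came from which batch or cohort, so p-values measure the spread between these pools. The rule for named genes was all 9 members, up to 5 genes of each list by size of the D1 Con to D2 Con difference, the 3 genes most like each member, *Sirt1* and the MSN markers. Some genes that this rule picks are not reported here.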

Additional observations from a re-analysis of the deposited data

Results flagged for a closer look

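In 5 of 63 groups of 4 or 5 libraries, 1 library lay far from the others for its group's range, where chance alone gives about 1 in 20. *Gpr6* in D1 Con replicate 1 was at 66.7 CPM, with the next library at 48.0, and *Gpr83* in the same library was at 275 CPM, with the next at 203. *Gpr6* in replicate 5 of the libraries labelled Sirt1-KO was at 58.0 CPM, with the next at 34.2. *Gpr139* in D2 Sus replicate 1 was at 0.466 CPM, with the next at 0.172, and *Gpr149* in D2 Con replicate 5 was at 35.5 CPM, with the next at 43.1.

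The ratio of IP to input differed between the D1 and D2 lines for 6 members, by the interaction term of the edgeR quasi-likelihood test. The log2 of the D1 ratio over the D2 ratio was -1.59 for *Gpr6* (adjusted p = 1.62e-15), -1.41 for *Gpr52* (adjusted p = 1.40e-15), -0.52 for *Gpr149* (adjusted p = 0.000298), 0.69 for *Gpr26* (adjusted p = 0.000609), 0.76 for *Gpr101* (adjusted p = 0.0207) and 1.77 for *Gpr139* (adjusted p = 0.00199).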

How the results depend on the processing

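The number of members that passed changed by over 1.5 times in 6 comparisons. In D1 Sus against D1 Con (2 members) it ran from 0 to 3 when single libraries were left out and was 0 by adjusted p. In D1 Sus against D1 Res (1 member) it ran from 0 to 2, was 2 with only the libraries compared, and was 0 by adjusted p. In D1 IP against D1 input (4 members) it was 7 by adjusted p alone, where most genes passed too (12535 of 15404 with RLE factors). The interaction of line and IP passed for 5 to 6 members with single libraries left out and for 2 with control libraries only, a setting chosen after seeing the data. In input Res against Con (0 members) it ran from 0 to 1. For Sirt1-KO against D1 Con (0 members) it ran from 0 to 2, was 2 by adjusted p alone, and was 5 with a replicate block (*Gpr6*, *Gpr83*, *Gpr101*, *Gpr139* and *Gpr149*), where genes called rose from 102 to 593 (233 with DESeq2 and 170 without a filter). Whether the numbers pair the libraries labelled Sirt1-KO with D1 Con is not known. The 3 same-numbered pairs had r from -0.01 to 0.08, beside -0.21 to 0.31 for 13 pairs of different numbers. IP groups of one number had a median r of 0.06 (17 of 66 pairs over 0.1). Those of different numbers had a median r of -0.01 (27 of 260 over 0.1). The block changed no other call, and the cause was not tested. Of the comparisons of single members under all alternatives, 3611 kept direction and side of the threshold, 171 near 0 changed sign without a call, 26 newly passed and 20 no longer passed; no called difference reversed. DESeq2 called as many members as edgeR in each comparison, 0 where edgeR called 0. A filter at a mean of 50 counts removed *Gpr139*, whose few counts limit what can be seen of it. Over all genes, calls also moved by over 1.5 times without a filter in D1 Res against D1 Con (300 to 478) and D2 Sus against D2 Res (236 to 447), with the replicate block in D2 Res against D2 Con (430 to 690), with the filter at a mean of 50 in the IP to input comparisons (6632 to 4164 in D1 and 6717 to 4209 in D2), with control libraries only in the interaction of line and IP (3924 to 759), and with DESeq2 between input lines (3 to 10). With DESeq2 the median of all genes in IP against input was -0.18 in both lines.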

Other observations

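Among other cell types, none of 6 astrocyte, 6 oligodendrocyte, 4 endothelial and 3 choroid plexus or ependyma markers differed between D1 Con and D2 Con at a fold over 1.5 and an adjusted p under 0.05 (edgeR quasi-likelihood test). Of 6 microglial markers, 1 was lower in D1 Con, *Cx3cr1* (-0.59 ± 0.19). Of 5 markers of parvalbumin, somatostatin and NPY interneurons, *Kit* was higher (0.97 ± 0.16) and *Npy* lower (-1.06 ± 0.22). The 6 astrocyte markers summed to 37.9 to 95.8 CPM in IPs and 791 to 1010 CPM in inputs, and the 6 oligodendrocyte markers to 403 to 786 CPM in IPs and 3465 to 5399 CPM in inputs.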
